A study of Mus musculus with 12 samples.

Results

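Members of the microRNA (miRNA) families best known from inflammation and tissue fibrosis, mmu-miR-21a-5p, mmu-miR-21a-3p, mmu-miR-146a-5p, mmu-miR-146b-5p and mmu-miR-155-5p, were followed in mouse quadriceps through postnatal growth. They were chosen by name, not by their measured values, although earlier results of these data were known. They are 5 of the 1966 mature miRNAs counted. Small RNA was sequenced from whole quadriceps of C57BL/6J wild-type mice. The ages were 1 day (P1), 5 days (P5), 14 days (P14) and, in adults, 90 days (P90) after birth, and the labels name no treatment. Each age had 3 libraries, which makes 12 in all. Per the study's methods, 3 mice were used at each age. The labels number the libraries of an age but do not tie each to a mouse, and the P values measure the spread between these libraries.

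miR-21 is one of the best known miRNAs of fibroblasts and macrophages. It is induced by growth factor and TGF-β signaling, and it is known to dampen brakes on these pathways such as Smad7 and Spry proteins. miR-146a and miR-146b are induced by NF-κB and act as a brake on it by targeting Traf6 and Irak1, which relay Toll-like receptor signals. miR-155 is made in activated lymphocytes and macrophages, where it promotes the inflammatory response, in part through repression of Socs1. In skeletal muscle these miRNAs are best known from injury and dystrophy, and here they were measured in healthy growing tissue.

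The mature sequences are shown first, because they tell which of the 5 miRNAs share a seed, the stretch that pairs with targets. They were taken from RefSeq (GRCm38.p6), written 5′ to 3′, and the capitals mark the seed at bases 2 to 8.
miR-21a-5p: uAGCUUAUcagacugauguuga
miR-21a-3p: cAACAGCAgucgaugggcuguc
miR-146a-5p: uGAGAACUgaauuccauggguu
miR-146b-5p: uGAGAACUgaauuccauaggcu
miR-155-5p: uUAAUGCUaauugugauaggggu
The 2 miR-146 paralogs had 20 of 22 bases in common, including the whole seed, and differed by G18A and U21C (base of miR-146a-5p, position from the 5′ end, base of miR-146b-5p). A read that stops before base 18 would hold neither difference. RefSeq held a sequence for 1675 of the 1966 miRNAs, and among these the seed occurred in no other. The seed of miR-21a-5p was shared with miR-21c alone, which had at most 2 counts in any library. None of these miRNAs had the seed of miR-21a-3p or miR-155-5p.

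The 5 miRNAs came from 4 hairpins on 3 chromosomes of GRCm38. The 2 arms of Mir21a lay on the minus strand at chr11:86584120-86584141 (5p) and chr11:86584082-86584103 (3p), inside the Vmp1 gene, and GENCODE placed this hairpin in an exon and untranslated region of Vmp1 on the same strand. miR-146a-5p lay at chr11:43374435-43374456 on the minus strand, in an exon of a long non-coding RNA in GENCODE. miR-146b-5p lay at chr19:46342790-46342811 on the plus strand, where GENCODE has an intron of Mfsd13a and of a long non-coding RNA on the same strand. miR-155-5p lay at chr16:84714143-84714165 on the plus strand, in an exon of its host transcript Mir155hg and opposite to an intron of Mrpl39. None of the 4 hairpins overlapped another miRNA hairpin.

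Library totals ranged from 20363495 to 53126984 counts, and the P90 libraries were the deepest. At P90, however, miR-1a-3p and miR-1b-5p, which is annotated opposite to it, held 79.6% to 85.3% of all counts, compared with 24.2% to 46.3% at the younger ages. Levels at P90 therefore depended on how libraries were scaled. Levels are given as normalized CPM, the usual unit of counts over library size, in which the size is scaled by the trimmed mean of M values (TMM), so that the bulk of the miRNAs sets the scale, and beside them as a share of the library total without such factors (raw CPM). Where the sign of a called difference of the 5 miRNAs turned with library totals alone, this is stated with it. Log2 fold changes (log2FC) are on the TMM scale unless another is named, and Padj is the edgeR quasi-likelihood P value adjusted by the Benjamini-Hochberg method over all 809 miRNAs tested.

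All 5 miRNAs passed the filter on low counts, and all 5 differed between the 4 ages (Padj from 8.41e-10 for miR-155-5p to 0.0291 for miR-21a-3p). Most miRNAs of the tissue did so, since the same test called 72.4% of those tested. Members called in each comparison of 2 ages are therefore set beside the share of all miRNAs called. From P1 to P5, 1 of 5 was called (background 4.45%). From P5 to P14, 3 of 5 were called, 2 higher and 1 lower (background 44.4%). From P14 to P90, 4 of 5 were called (background 59.1%), all of them higher at P90 on the TMM scale (22.4% of all miRNAs were called higher), a direction that no member kept when library totals alone were used. From P1 to P90, 4 of 5 were called (background 66.4%), again all higher (25.2% of all miRNAs), and with library totals alone miR-155-5p was the member that stayed higher. In bulk tissue, fewer cells of a type and less RNA per cell cannot be told apart.

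**Figure D1:**
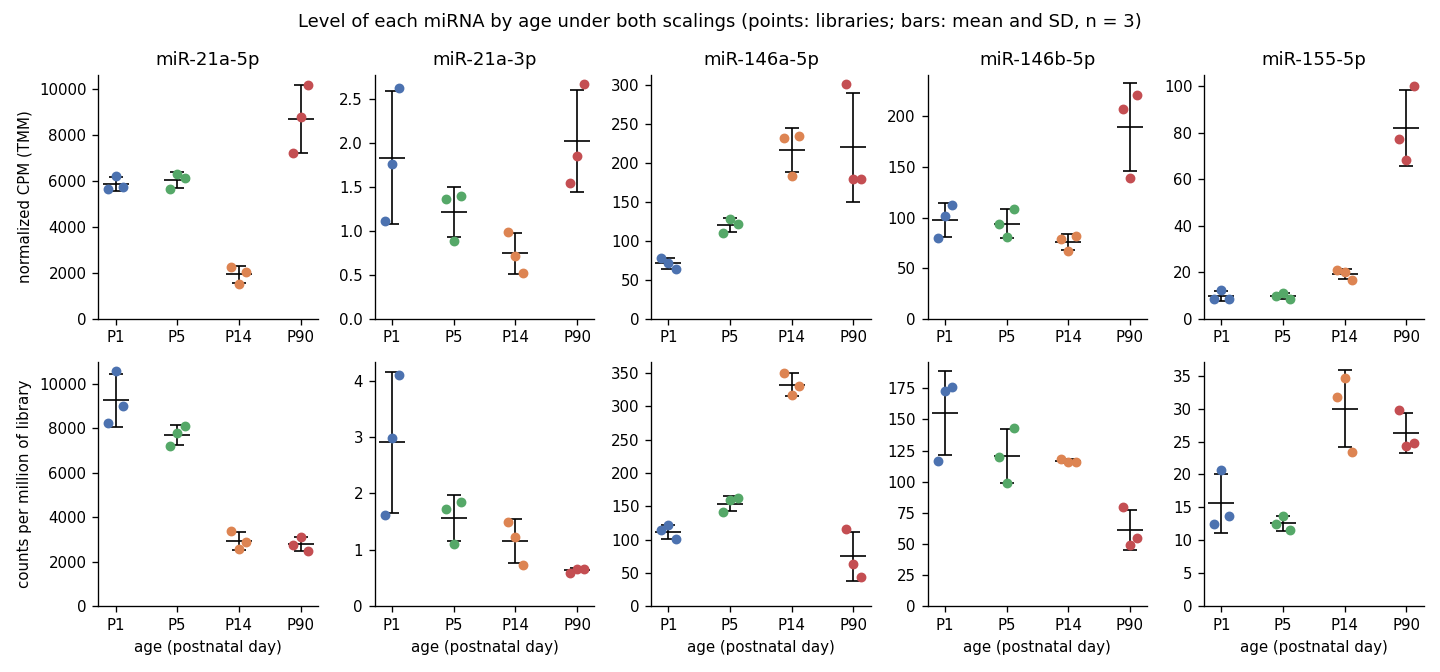
Level of each miRNA at P1, P5, P14 and P90, as normalized CPM (upper row) and as raw CPM (lower row), on linear axes that start at 0. Points are libraries, and bars are the mean and SD of 3. The miR-21a-5p points fall at P14 and the miR-146a-5p points rise to P14 in both rows. The P90 points stand high in the upper row, and for each miRNA but miR-155-5p they stand low in the lower row. Raw CPM at P90 overlaps that at P14 for miR-155-5p and for miR-21a-5p.

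miR-21a-5p was the most abundant of the 5 and the one called lower from P5 to P14. All mature forms compared here are 22 or 23 bases long, so their levels can be set side by side without a length term, although ligation during library preparation may favor some sequences. miR-21a-5p ranked 20 to 27 among all miRNAs in the P1 and P5 libraries, 50 to 62 at P14 and 19 to 21 at P90. The P1 libraries had 5631, 6212 and 5742 normalized CPM, and the P5 libraries had 5659, 6307 and 6125. The P14 libraries had 2240, 1502 and 2047 normalized CPM, and the P90 libraries 7194, 8753 and 10140. Thus all P14 libraries lay below all others, and all P90 libraries lay above all others on this scale but not in raw CPM. The mean was 5861 ± 309 for P1, 6031 ± 334 for P5, 1930 ± 383 for P14 and 8695 ± 1474 for P90 (SD, n = 3).

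P1 and P5 did not differ in miR-21a-5p beyond their spread (log2FC = 0.04, SE 0.16, Padj = 0.971). The level then fell by 1.64 on the log2 scale from P5 to P14 (SE 0.16, Padj = 9.55e-07), and 111 of the 809 miRNAs had a lower log2FC. The fall was called under all 10 other settings of the fit and without each library in turn, with log2FC from -1.79 to -1.17. P14 was lower than P1 by a like amount (log2FC = -1.60, Padj = 6.85e-07). Raw CPM showed the fall as well, with 7216 to 8098 at P5 and 2590 to 3384 at P14. The rise from P14 to P90 on the TMM scale (log2FC = 2.17, SE 0.16, Padj = 8.11e-09) was absent with library totals alone (log2FC = -0.08, Padj = 0.621), where P90 had 2504 to 3107 raw CPM, and was smaller with the trend of counts with GC content removed (log2FC = 1.09, Padj = 2.21e-06). P90 was also above P1 on the TMM scale (log2FC = 0.57, SE 0.16, Padj = 0.00452) and below it with library totals (log2FC = -1.73, Padj = 1.97e-08), and the difference was not called without the GC trend (log2FC = -0.06, Padj = 0.677). It was above P5 on the TMM scale (log2FC = 0.53, Padj = 0.00784; background 63.2%), but below it with library totals (log2FC = -1.46), and no difference was called without the GC trend (log2FC = -0.08, Padj = 0.624).

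miR-21a-3p, the other arm of the same hairpin, was rare throughout. It had 15 to 110 counts in a library, or 0.0284% ± 0.0111 of the counts of both arms (SD, n = 12). Its normalized CPM was 1.11, 1.75 and 2.62 at P1, 1.36, 0.887 and 1.40 at P5, 0.991, 0.715 and 0.524 at P14, and 1.55, 1.86 and 2.67 at P90. The 3 P14 libraries lay below all P1 and P90 libraries, but not below all P5 libraries. The lowest count, 15 at P14, corresponds to 0.737 raw CPM with a 95% Wilson interval of 0.446 to 1.22, so counting error alone is wide here. P14 was lower than P1 by 1.29 on the log2 scale (SE 0.42, Padj = 0.0189; background 49.1%), a call that was lost without P1 replicate 3 (log2FC = -0.93, Padj = 0.125), with upper-quartile factors (log2FC = -0.96, Padj = 0.0549) and with these 2 ages only in the fit (log2FC = -1.20, Padj = 0.0511). P90 was higher than P14 on the TMM scale (log2FC = 1.42, SE 0.43, Padj = 0.0106), and the sign turned with library totals alone (log2FC = -0.86, Padj = 0.0821). The test across all ages was not passed without P14 replicate 2 (Padj = 0.0588) or P14 replicate 3 (Padj = 0.0656).

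A ratio of counts within a library needs no scaling between libraries, and for the arms of Mir21a it gave no call. The arms differ in GC content (36.4% for miR-21a-5p and 59.1% for miR-21a-3p), and the part of the GC trend in this ratio was not tested. There were 3.12 ± 1.32 miR-21a-3p counts for every 10000 miR-21a-5p counts at P1, 2.03 ± 0.543 for P5, 3.92 ± 1.18 for P14 and 2.30 ± 0.286 for P90 (SD, n = 3). All P14 libraries (2.56 to 4.76) lay above all P5 libraries (1.41 to 2.40), and all other pairs of ages overlapped. The exact permutation test over the 15400 partitions of the 12 libraries into 4 ages gave P = 0.131 (adjusted over 3 ratios, 0.131). Across the 4 ages no shift between the arms was called at this depth, and P5 against P14 alone was not tested.

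miR-146a-5p rose from birth to P14. Its normalized CPM was 77.9, 71.5 and 64.1 in the P1 libraries, 110.7, 128.7 and 122.5 at P5, 232.0, 183.7 and 235.1 at P14, and 301.8, 179.7 and 179.6 at P90. P1, P5 and P14 did not overlap, whereas P14 and P90 did, because 1 P90 library was above and the others below the P14 libraries. The means were 71.1 ± 6.90 for P1, 120.6 ± 9.15 for P5, 216.9 ± 28.8 for P14 and 220.4 ± 70.5 for P90 (SD, n = 3).

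The step of miR-146a-5p from P5 to P14 (log2FC = 0.85, SE 0.20, Padj = 0.00245) and the sum of both steps from P1 to P14 (log2FC = 1.61, SE 0.20, Padj = 6.72e-06) were called under all 10 other settings and without each library. Raw CPM likewise did not overlap, with 100.5 to 121.5 for P1, 141.1 to 161.9 for P5 and 316.9 to 350.4 for P14. The first step, from P1 to P5 (log2FC = 0.76, SE 0.20, Padj = 0.0388), was the 1 call among the 5 miRNAs in these days, and it kept its direction but not its call under 5 of 10 settings and without 8 of 12 libraries, P1 and P5 replicates 1 to 3 and P14 replicates 1 and 3 (Padj up to 0.175). P14 and P90 did not differ beyond their spread (log2FC = 0.02, SE 0.19, Padj = 0.936). The sign of this comparison depended on the scaling, from a log2FC of 1.61 with upper-quartile factors to -2.16 with library totals, both called. P90 was above P1 on the TMM scale (log2FC = 1.63, SE 0.20, Padj = 2.43e-06) and below it with library totals alone (log2FC = -0.58, Padj = 0.0484). The same held against P5, with a log2FC of 0.87 (Padj = 0.00108) and of -1.04.

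miR-146b-5p, which has the same seed, followed another course. It showed no called change from P1 to P14 and stood highest at P90 on the TMM scale. The libraries had 79.6, 101.8 and 112.2 normalized CPM at P1, 93.7, 80.4 and 108.2 at P5, 78.4, 67.0 and 82.2 at P14, and 207.4, 139.5 and 220.5 at P90. All P90 libraries lay above all younger ones on this scale, the reverse of raw CPM, and the younger ages overlapped each other. P5 differed from P1 by a log2FC of -0.06 (Padj = 0.961) and P14 from P5 by -0.31 (SE 0.19, Padj = 0.219). P14 differed from P1 by -0.37 (Padj = 0.135), a difference that passed without P1 replicate 1 (log2FC = -0.56, Padj = 0.0396) or P90 replicate 2 (log2FC = -0.41, Padj = 0.0457). It was also called lower with library totals without miR-1a-3p and miR-1b-5p, and the lack of a call held under 8 of 10 other settings.

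From P14 to P90 miR-146b-5p rose on the TMM scale (log2FC = 1.32, SE 0.20, Padj = 2.82e-05), and with library totals alone it fell (log2FC = -0.93, Padj = 0.00140). With the GC trend removed the rise was smaller (log2FC = 0.67, Padj = 0.00809). In raw CPM it went from 115.5 to 118.4 at P14 down to 49.5 to 79.7 at P90. P90 was likewise above P1 (log2FC = 0.95, SE 0.20, Padj = 0.000466) and above P5 (log2FC = 1.01, SE 0.20, Padj = 0.000310) on the TMM scale, and below both with library totals (log2FC = -1.34 and -0.98). In position among all miRNAs, 128 of 809 had a higher log2FC from P14 to P90 than miR-146b-5p with TMM, 136 with library totals and 221 with the GC trend removed. A change of scaling shifts all miRNAs nearly alike, so the counts for TMM and library totals were bound to be close.

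The ratio of the paralogs does not depend on the scaling. How reads that end before base 18 were assigned to the paralogs is not given in the sources used here, and their part in this ratio was not tested. The libraries had 1.02, 1.42 and 1.75 miR-146b-5p counts per miR-146a-5p count at P1, 0.847, 0.625 and 0.883 at P5, 0.338, 0.365 and 0.350 at P14, and 0.687, 0.776 and 1.23 at P90. Thus miR-146b-5p was the more frequent paralog in all P1 libraries and was counted least often relative to miR-146a-5p at P14, where the libraries lay close together (0.351 ± 0.0133, SD, n = 3). P1, P5 and P14 did not overlap, while the P90 libraries (0.897 ± 0.290) overlapped those of P5, with 1 library within the range of P1. The ages differed in the exact permutation test (P = 0.00149, that is 23 of 15400 partitions; adjusted over 3 ratios, 0.00331), and the adjusted value stayed between 0.00331 and 0.00740 without each library in turn. Both mature sequences have the same GC content (40.9%), so the linear GC trend shifts both alike. The part of ligation during library preparation in this ratio was not tested.

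**Figure D2:**
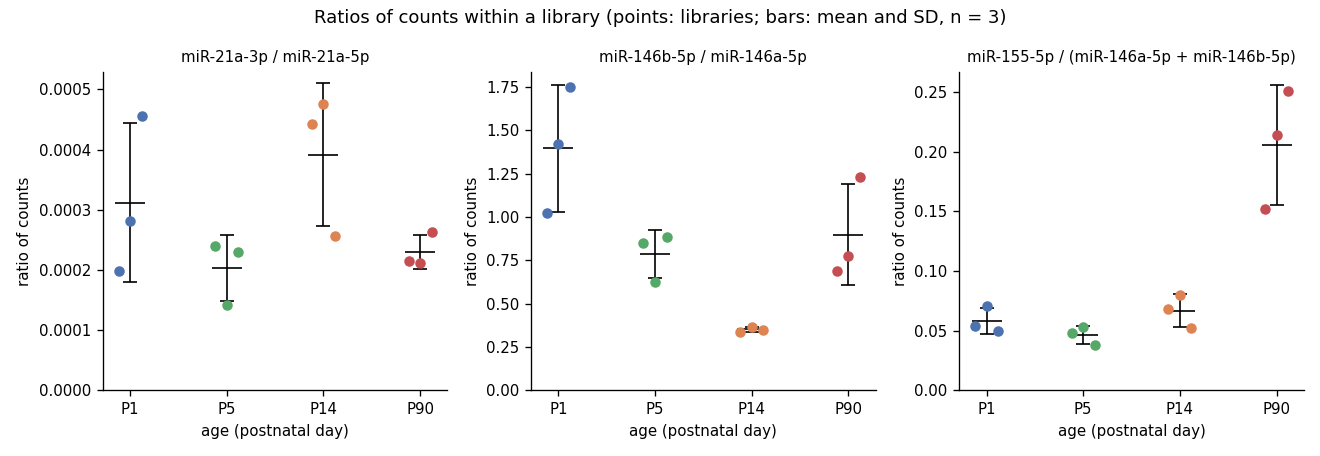
Ratios of counts within each library for the arms of Mir21a (left), the miR-146 paralogs (middle) and miR-155-5p over the sum of both paralogs (right), by age, on axes that start at 0. Points are libraries, and bars are the mean and SD of 3. The paralog ratio falls from 1.40 at P1 to 0.351 at P14, and the miR-155-5p ratio at P90 (0.152 to 0.251) lies above all younger libraries (0.0377 to 0.0801).

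miR-155-5p was scarce at birth, rose from P5 to P14, and stood highest at P90 on the TMM scale, while in raw CPM P14 and P90 overlapped. Its normalized CPM was 8.53, 12.2 and 8.69 at P1, 9.83, 11.12 and 8.70 at P5, 21.1, 20.1 and 16.7 at P14, and 77.4, 68.3 and 100.3 at P90. P1 and P5 overlapped fully, all P14 libraries lay above them, and all P90 libraries lay above P14. In rank among all miRNAs miR-155-5p was between 341 and 361 in the P1 and P5 libraries, between 281 and 310 at P14 and reached 145 at P90. Between 322 and 1301 counts stood behind each value, and for the lowest count, or 12.5 raw CPM, the 95% Wilson interval was 11.2 to 13.9.

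P5 and P1 did not differ in miR-155-5p beyond their spread (log2FC = 0.01, SE 0.20, Padj = 0.991). The rise from P5 to P14 (log2FC = 0.96, SE 0.20, Padj = 0.00111) was called under all 10 other settings and without each library (log2FC from 0.84 to 1.52). P14 was also above P1 (log2FC = 0.98, SE 0.20, Padj = 0.000833). The rises from P5 to P90 (log2FC = 3.05, SE 0.21, Padj = 2.69e-09) and from P1 to P90 (log2FC = 3.06, SE 0.21, Padj = 2.34e-09) were also called under each of them, although the size of the second ranged from 0.75 with library totals alone to 4.93 with upper-quartile factors. Raw CPM was 12.5 to 20.7 at P1 and 24.3 to 29.7 at P90, without overlap. The last step, from P14 to P90 (log2FC = 2.09, SE 0.21, Padj = 2.25e-07), was the 1 called step of miR-155-5p whose sign turned, with a log2FC of -0.19 (Padj = 0.447) when library totals alone were used, and it was smaller with the GC trend removed (log2FC = 0.85, Padj = 0.00291). Among all 809 miRNAs, 43 had a larger log2FC from P1 to P90 with TMM, 45 with library totals and 79 once the GC trend was removed. Here too the counts for TMM and library totals were bound to be close.

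Relative to the miR-146 paralogs, miR-155-5p stood at 0.0579 ± 0.0110 counts per miR-146 count for P1, 0.0463 ± 0.00788 for P5, 0.0668 ± 0.0138 for P14 and 0.206 ± 0.0499 for P90 (SD, n = 3). The 3 younger ages overlapped, and all P90 libraries (0.152, 0.214 and 0.251) lay above them. The exact permutation test gave P = 0.00221 (34 of 15400 partitions; adjusted over 3 ratios, 0.00331), and the adjusted value stayed at or below 0.00984 without each library. miR-155-5p has a lower GC content (34.8%) than the paralogs, and the part of the GC trend in this ratio was not tested.

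**Figure D3:**
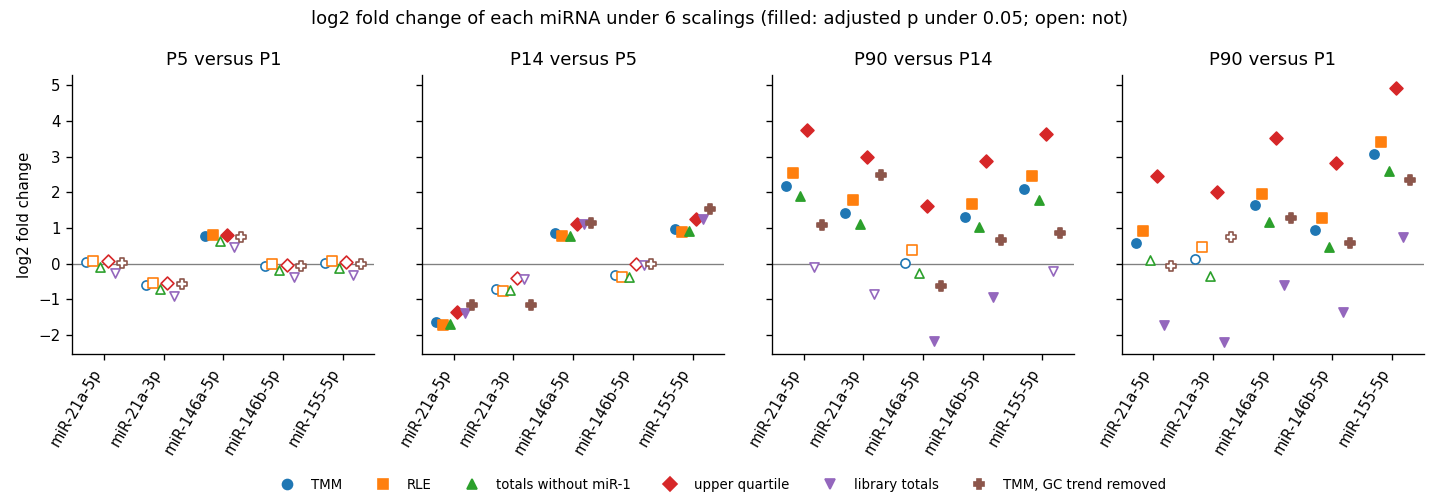
Log2 fold change of each miRNA in 4 comparisons of ages under 6 scalings of the same counts. Filled symbols had an adjusted P value under 0.05 and open symbols did not. From P5 to P14 the symbols of a miRNA lie close together, with miR-21a-5p between -1.72 and -1.17, whereas in the P90 comparisons library totals alone lie lowest and upper-quartile factors highest, and for P90 versus P1 only miR-155-5p stays above 0 throughout with all symbols filled.

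The scale of the P90 libraries touched all miRNAs alike. The median log2FC of all miRNAs tested from P14 to P90 was -0.55 with TMM, -2.77 with library totals alone and 0.99 with upper-quartile factors. From P1 to P90 these medians were -0.72, -2.97 and 1.18. Set against the median of the same scaling, miR-155-5p stood 3.78 above it from P1 to P90 with TMM and 3.72 with library totals, miR-146a-5p 2.35 and 2.39, miR-146b-5p 1.67 and 1.63, and miR-21a-5p 1.29 and 1.24. All 5 members lay above the median from P1 to P90 under each of these scalings. A change of scaling shifts every log2FC by nearly the same amount. This position could therefore hardly move, and its agreement between scalings is no test of it. A trend with GC content is not such a common shift and can move the position. Relative to the mean of all libraries, levels rose with GC content in the P14 libraries and fell with it in the P90 libraries. The slopes were 0.38 to 0.56 at P14 and -0.59 to -0.38 at P90, in log2 units per 10 percentage points. In the P1 and P5 libraries they lay between -0.012 and 0.075. The slopes were fitted to these same libraries and differed by age. A GC bias of libraries and changes with age that track GC content can therefore not be told apart here. With this trend removed miR-21a-5p stood 0.53 above the median from P1 to P90, miR-155-5p 2.95, miR-146a-5p 1.86 and miR-146b-5p 1.17, each less than with TMM. miR-21a-3p went the other way and stood 1.33 above the median, compared with 0.85 with TMM.

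**Figure D4:**
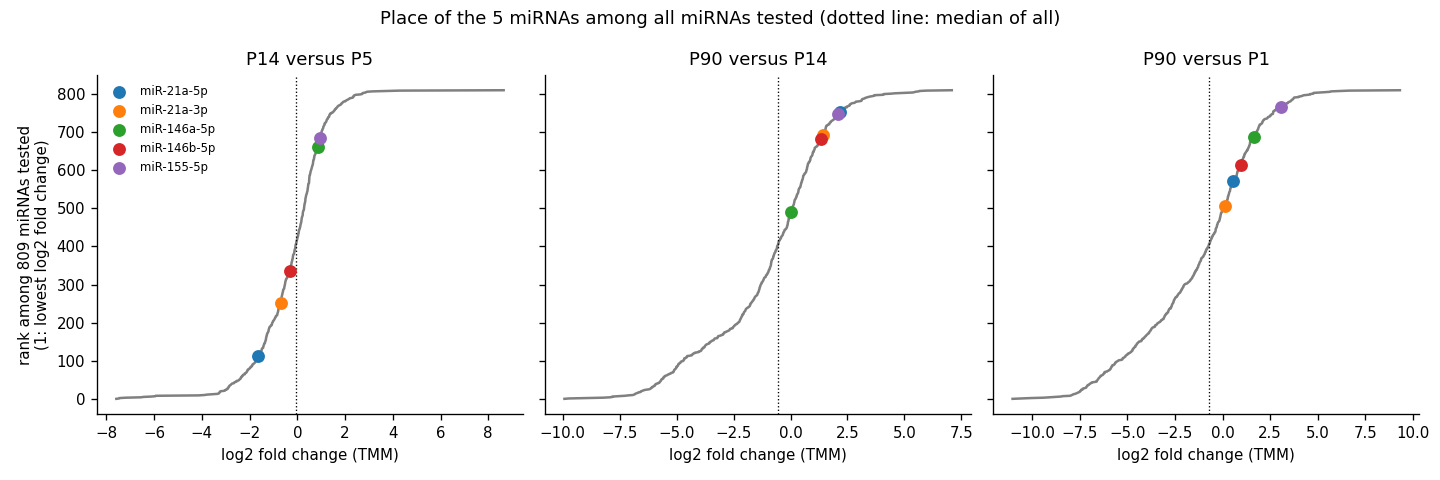
Rank of each of the 809 miRNAs by log2 fold change (grey curve, TMM scaling) in 3 comparisons of ages, with the 5 miRNAs as colored points and the median of all as a dotted line. miR-21a-5p has rank 112 from P5 to P14 and lies near the top with miR-155-5p from P14 to P90, and from P1 to P90 miR-155-5p ranks highest of the 5 with 43 miRNAs above it. From P14 to P90, 58 miRNAs lie above miR-21a-5p and 63 above miR-155-5p. With the GC trend removed (not drawn) these counts were 164 and 203.

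The other arms of the hairpins and the paralogs carried few reads. miR-146a-3p had 0 to 8 counts in a library and miR-155-3p 0 to 5. miR-146b-3p had 6 to 44 counts, or 0.693% ± 0.273 of the counts of its hairpin (SD, n = 12), and its difference between P90 and P1 was not called (log2FC = 1.44, SE 0.64, Padj = 0.0587). P90 was called above P5 on the TMM scale (log2FC = 1.66, SE 0.64, Padj = 0.0344), while raw CPM overlapped, with 0.424 to 0.836 at P5 and 0.282 to 1.01 at P90. The miR-21 paralogs were nearly absent, with at most 3 counts of miR-21b and 2 of miR-21c in any library.

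The miRNAs whose levels followed each member most closely over the 12 libraries were found by Pearson correlation of log2(normalized CPM + 0.5) among 350 miRNAs. Libraries of an age are not independent points and all share the scaling, so these values are a description. miR-21a-5p was most like miR-98-5p (r = 0.975), a let-7 family member, followed by miR-26b-5p (0.934) and miR-872-5p (0.930). miR-98-5p likewise had its lowest mean at P14, at 256.5 ± 47.3 normalized CPM compared with 626.4 ± 39.6 at P5. miR-146a-5p was most like miR-150-5p (r = 0.948, but 0.664 with library totals), let-7d-5p (0.947) and miR-191-5p (0.947). miR-146b-5p was most like miR-30b-5p (0.927), miR-196a-5p (0.923) and miR-15a-5p (0.912). miR-155-5p was most like miR-664-3p (0.988), miR-26a-5p (0.987, but 0.506 with library totals) and miR-181a-2-3p (0.979). For miR-21a-3p the values were lower, with miR-133b-3p (0.775), its partner arm miR-21a-5p (0.772) and miR-142a-5p (0.763). Between the members, miR-155-5p and miR-21a-5p showed r = 0.287 with TMM and -0.834 with library totals, so their likeness depended on the scaling.

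Other miRNAs induced by inflammatory signals or made in macrophages were read from a list of 9, all of them tested. From P1 to P5, edgeR called 0 of the 9, beside 4.45% of all miRNAs (0 had an unadjusted P value under 0.05, and DESeq2 called 0). From P5 to P14, 3 were called, all of them higher (miR-132-3p, miR-132-5p and miR-511-5p), with a median log2FC of 0.46 beside -0.07 for all miRNAs (background 44.4%). The call of miR-132-5p was lost with RLE factors (Padj = 0.0678) and with library totals without miR-1a-3p and miR-1b-5p (Padj = 0.0555). From P14 to P90, 3 were called, all of them lower on the TMM scale (miR-132-3p, miR-132-5p and miR-212-5p, median -0.81 beside -0.55). Of all 809 miRNAs, 297 were called lower. With library totals all 9 were called lower, beside 628 of all 809 miRNAs. With upper-quartile factors 5 were called, all of them higher, beside 382 of 809 called higher. From P1 to P90, 1 was called higher (miR-511-5p) and 1 lower (miR-147-3p), beside 204 higher and 333 lower of all 809 miRNAs. miR-147-3p had 2 to 15 counts in a P1 library and none at P90. The median of the list was -0.12 beside -0.72. With library totals alone all 9 were called lower, beside 647 of all 809 miRNAs. With upper-quartile factors 8 were called, all of them higher, beside 391 of 809 called higher. miR-132-3p, a miRNA of activated neurons and leukocytes, rose from 26.5 ± 3.35 normalized CPM at P5 to 42.2 ± 3.61 at P14 (SD, n = 3; log2FC = 0.67, Padj = 0.00314). Its P90 level was 20.5 ± 1.18, below P14 with TMM (log2FC = -1.04) and with library totals (-3.26), but above it with upper-quartile factors (0.54, Padj = 0.00958). miR-9-5p, best known from neurons, was the most abundant of the list and was not called in any of these comparisons on the TMM scale. From P14 to P90 it was called higher with RLE factors, the median-ratio scaling (log2FC = 1.13), and upper-quartile factors (2.33) and lower with library totals (-1.48), and from P1 to P90 it was called higher with upper-quartile factors (2.38) and lower with library totals (-1.80). Its P5 mean of 162.0 ± 132.0 rested on 1 library.

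The miRNAs known for collagen, matrix or fibroblast regulation, also a list of 9 that were all tested, moved in opposite directions. From P5 to P14, 3 were called higher (miR-29a-3p, miR-30c-5p and miR-133a-3p) and 3 lower (miR-199a-5p, miR-199a-3p and miR-214-5p, median log2FC of the list 0.13 beside -0.07; background 44.4%). With library totals the calls of miR-199a-5p and miR-214-5p were lost (Padj = 0.141 and 0.0983). This left 3 higher and 1 lower, beside 183 and 160 of all 809 miRNAs. With the GC trend removed 5 were called higher and 4 lower, beside 127 and 213 of 809. From P1 to P90, 5 were called higher (the 3 miR-29 members, miR-30c-5p and miR-133a-3p) and 4 lower (both arms of miR-199a and of miR-214). Of all 809 miRNAs, 204 were called higher and 333 lower. The counts of the list were the same with library totals alone, beside 36 higher and 647 lower of all miRNAs. With upper-quartile factors 5 were called higher and 3 lower, beside 391 and 192 of all miRNAs. miR-133a-3p, a miRNA of muscle fibers, went from 5439 ± 529 normalized CPM at P1 to 60567 ± 15005 at P90 (SD, n = 3; log2FC = 3.48, Padj = 1.95e-10). miR-199a-3p, a mesenchymal miRNA, went from 7567 ± 694 to 1633 ± 292 (log2FC = -2.21, Padj = 8.48e-09). From P14 to P90, 5 were called higher and 4 lower with TMM, 3 higher and 6 lower with library totals, and 6 higher and 1 lower with upper-quartile factors. Of all 809 miRNAs, 181 were called higher and 297 lower with TMM, 18 and 628 with library totals, and 382 and 159 with upper-quartile factors. From P1 to P5, 1 was called with TMM (miR-29c-3p, higher), 2 were called higher with RLE factors (miR-29c-3p and miR-133a-3p), and with library totals 1 was called lower instead (miR-199a-5p, log2FC = -0.82, Padj = 0.0224). Of all 809 miRNAs, 22 were called higher with TMM and 32 with RLE factors, and 37 were called lower with library totals. miR-21a-5p, often named with these miRNAs in fibrosis, fell from P5 to P14 together with miR-199a-3p (log2FC = -1.21, Padj = 2.67e-05) and opposite to miR-133a-3p (log2FC = 1.65, Padj = 4.04e-06).

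The 5 miRNAs are also made in blood cells, and markers of these cells were read beside them. The 8 leukocyte markers were present at all ages, with none at 0, and their summed level was 409.2 to 613.6 normalized CPM for P1, 283.9 to 305.5 for P5, 351.8 to 369.0 for P14 and 347.7 to 493.2 for P90. From P5 to P14, 2 of 8 were called higher (both arms of miR-150) and 2 lower (both arms of miR-142a), a share near that of all miRNAs (44.4%). From P1 to P90, 2 were called higher and 5 lower on the TMM scale (median log2FC -1.02 beside -0.72, background 66.4%). With library totals 1 was called higher and 6 lower, beside 36 and 647 of all 809 miRNAs. With upper-quartile factors 4 were called, all of them higher, beside 391 of 809 called higher. The 2 arms of miR-142a, a miRNA of all leukocytes, fell from P5 to P14 like miR-21a-5p (log2FC = -2.29 and -0.79, Padj = 7.62e-06 and 0.000665), the second of them not called with library totals or with the GC trend removed. miR-150-5p, a miRNA of mature lymphocytes, rose over the same days like miR-146a-5p and miR-155-5p (log2FC = 2.16, Padj = 2.11e-07). On the TMM scale the 2 most abundant markers, miR-223-3p and miR-342-3p, were not called over these days (log2FC = -0.11 and 0.23, Padj = 0.802 and 0.253). Their other arms were not called either. Of the 3 red blood cell markers all were called lower at P14 than at P5 on the TMM scale (median log2FC -2.11) and 2 with library totals. Of all 809 miRNAs, 213 were called lower with TMM and 160 with library totals. The sum of the 3 markers was 313.4 to 378.5 normalized CPM at P5 and 152.7 to 233.7 at P14. The part of blood cells in the courses of miR-21a-5p, miR-146a-5p and miR-155-5p was not tested.

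The muscle miRNAs miR-1a-3p, miR-133a-3p and miR-206-3p were present in all libraries and together made up 239390 to 341011 raw CPM before P90 and 557118 to 585299 at P90. The level of miR-122-5p, a liver miRNA, varied widely among the P1 libraries (182.5 ± 165.5 normalized CPM, SD, n = 3). It ranged from 1670 counts in P1 replicate 1 to 15853 in P1 replicate 2. In P1 replicate 2, miR-223-3p, a granulocyte miRNA, and miR-155-5p were also the highest of the P1 libraries. miR-124-3p, a neuron miRNA, had 9.33 ± 1.77 normalized CPM for P1, 14.2 ± 7.64 for P14 and 20.7 ± 1.28 for P90 (SD, n = 3), and 286 to 1255 counts in a library at P5. Without P1 replicate 2 the rise of miR-155-5p from P1 to P90 was still called, as it was without each other library (log2FC from 2.91 to 3.29).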

How the data were processed

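Small RNA libraries were prepared from total RNA of mouse quadriceps. The deposited values are raw counts per mature miRNA with no normalization. Per the study's methods and the submitters' processing notes, the authors selected reads by length with cutadapt 1.18, aligned them to GRCm38 with Bowtie2 2.4.1 and counted them with featureCounts 2.0.1 on the miRBase annotation. Options for strand, overlap and multiple alignments are not given in the sources used here. No source names molecular identifiers for these counts, so Wilson intervals cover counting error only.

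Groups were taken from the sample titles. The counts were analyzed in R 4.3.3 with edgeR 4.0.16. The filterByExpr function (minimum count 10) left 809 miRNAs, which were scaled with TMM. A quasi-likelihood fit over all 12 libraries had age as its only factor. F-tests (2-sided) addressed any age difference and 6 comparisons of 2 ages, with Benjamini-Hochberg adjustment over the miRNAs tested and a threshold of 0.05. The standard error (SE) of a log2FC was computed from F. Scripts were tested on simulated data. No 2 libraries of an age agreed within sampling noise (chi-square per degree of freedom 155 or more). Ratios within a library were compared with an exact permutation test, whose statistic was the sum of squares between ages of the log2 ratio. A comparison of 3 with 3 libraries cannot pass in such a test and was not made.

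The alternatives were RLE and upper-quartile factors, library totals with and without miR-1a-3p and miR-1b-5p, no filter, DESeq2 1.42.0, the replicate number as a block, a linear trend with GC content removed (85.0% of the tested miRNAs had a sequence), a fit to 2 ages only, and leaving out each library. Sequences and coordinates came from RefSeq (GRCm38.p6), and exon or intron placement from GENCODE vM39, whose coordinates belong to another build and were not used.

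The named miRNAs are the 5 members, the other arms and paralogs, miRNAs with a shared seed, the 3 most correlated miRNAs of each member (mean normalized CPM of at least 10), and the 2 most abundant of each list. All other miRNAs of the lists and markers were named after their values were seen. The members and lists were chosen with earlier results of these data known.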

Additional observations from a re-analysis of the deposited data

How the results depend on the processing

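Each value was recomputed under up to 10 other settings and without each library. The fall of miR-21a-5p and the rises of miR-146a-5p and miR-155-5p from P5 to P14 and from P1 to P14, and the rises of miR-155-5p from P1 and P5 to P90, kept direction and call under all of them, as did the calls of the ratios. All values below are log2FC unless named as Padj. With library totals alone, P90 versus P14 was -0.080 (miR-21a-5p), -0.86 (miR-21a-3p), -2.16 (miR-146a-5p), -0.93 (miR-146b-5p) and -0.19 (miR-155-5p). P90 versus P1 was -1.73, -2.18, -0.58 and -1.34 for the first 4, and P90 versus P5 was -1.46, -1.29, -1.04 and -0.98. P5 versus P1 was -0.27 for miR-21a-5p, 0.46 for miR-146a-5p and -0.31 for miR-155-5p. Totals include the share of miR-1a-3p and miR-1b-5p, and beyond this the cause was not tested. Without these 2 miRNAs in the totals, P5 versus P1 was -0.083 (miR-21a-5p), 0.64 (miR-146a-5p) and -0.11 (miR-155-5p), miR-21a-5p was 0.10 for P90 versus P1 and 0.18 for P90 versus P5, miR-21a-3p was -0.35 for P90 versus P1, miR-146a-5p was -0.25 for P90 versus P14, and miR-146b-5p was -0.55 for P14 versus P1 and called. Upper-quartile factors gave 2.02 (P90 versus P1), 2.57 (P90 versus P5) and -0.96 (P14 versus P1) for miR-21a-3p and 1.61 for miR-146a-5p (P90 versus P14). RLE factors gave 1.02 for miR-21a-3p (P90 versus P5).

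For the other settings the cause was not tested either. With the GC trend removed, miR-21a-5p was -0.063 (P90 versus P1) and -0.075 (P90 versus P5), miR-21a-3p was -1.16 (P14 versus P5) and 1.32 (P90 versus P5), miR-146a-5p was 0.74 (P5 versus P1) and -0.61 (P90 versus P14), and miR-155-5p was -0.022 (P5 versus P1). With the replicate block added to it, the values in the same order and without the one for P14 versus P5 were -0.067, -0.078, 1.31, 0.76, -0.65 and -0.017. With no filter, miR-146b-5p was -0.50 (P14 versus P1) and miR-155-5p was -0.014 (P5 versus P1), and with 2 ages only in the fit miR-21a-3p was -1.20 (P14 versus P1, not called) and miR-155-5p was -0.017 (P5 versus P1).

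The replicate numbers of the titles do not pair the libraries. Deviations of same-numbered libraries correlated between -0.34 and 0.25 over 18 pairs, and 2 of 12 libraries correlated best with their own number. With the replicate block, miR-146a-5p from P1 to P5 was 0.78 (Padj = 0.0545) and miR-21a-3p across ages had Padj = 0.0568, and no other call changed.

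Leaving out each library in turn gave, for P5 versus P1, -0.0047 to 0.079 (miR-21a-5p), 0.68 to 0.81 (miR-146a-5p), -0.20 to 0.050 (miR-146b-5p) and -0.10 to 0.18 (miR-155-5p). For miR-21a-3p the range was -0.16 to 0.56 (P90 versus P1), -1.61 to -0.93 (P14 versus P1) and Padj = 0.0123 to 0.0656 across ages. It was -0.26 to 0.25 for miR-146a-5p (P90 versus P14) and -0.56 to -0.26 for miR-146b-5p (P14 versus P1). The values of miR-21a-3p rest on 15 to 110 counts in a library, and counting error is wide at this depth.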
